A study of Mus musculus with 6 samples.

Results

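The 9 genes described here are the 4 mammalian Notch receptors (Notch1, Notch2, Notch3 and Notch4), the ligands Dll1, Dll4, Jag1 and Jag2, and the related gene Dlk1. They were taken by name, through probe sets that the platform annotation pairs with 1 of these symbols alone. All 9 were found, with 19 of the 45037 probe sets fitted, among 18193 genes in all. RNA of quadriceps muscle from C57/Bl6 mice aged 2 months was measured on 1 Affymetrix array per sample. The knockout group held 3 samples with floxed Pofut1 alleles and a skeletal α actin cre transgene. The 3 control samples carried that cre as well, but with wild-type Pofut1, so cre is common to both groups. Where 3 intensities are listed for a group, they follow the order of replicates 1 to 3.

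Notch receptors are single-pass membrane proteins with long rows of EGF-like repeats outside the cell. A ligand on a neighbouring cell binds these repeats, and its pull exposes the receptor to ADAM proteases and then to gamma-secretase. The released intracellular part enters the nucleus, binds RBPJ with a Mastermind protein, and switches on genes of the Hes and Hey families. Pofut1 encodes the enzyme that puts O-linked fucose on EGF-like repeats of receptors and ligands, a sugar that receptors need for binding their ligands. In muscle, Notch signalling keeps satellite cells, the stem cells beside the fibres, quiescent. It also acts in endothelium and in the mural cells of vessels. The comparison asked whether transcripts differ when Pofut1 is deleted by a cre that the skeletal alpha-actin promoter drives, a promoter of muscle fibres. Whole muscle was measured, so vessel, nerve and stem cells are part of each sample, and fewer cells of a type cannot be told apart from less RNA per cell.

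Promoter sequence is given for Notch1, Notch3 and Dll1, since the results below turn on these genes. The sequences are the 250 bases before the start site in RefSeq, build GRCm38.p6, written 5′ to 3′ on the gene's strand. The 3 stretches are chr2:26503823-26504072, chr17:32166891-32167140 and chr17:15376933-15377182, all on the minus strand. Capitals mark GC boxes (GGGCGG on either strand) and the E-box CAGCTG.
Notch1: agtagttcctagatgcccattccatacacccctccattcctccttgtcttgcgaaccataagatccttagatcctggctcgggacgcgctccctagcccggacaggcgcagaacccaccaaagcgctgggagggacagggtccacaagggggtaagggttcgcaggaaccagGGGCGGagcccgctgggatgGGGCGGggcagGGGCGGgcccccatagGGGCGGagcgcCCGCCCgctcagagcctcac
Notch3: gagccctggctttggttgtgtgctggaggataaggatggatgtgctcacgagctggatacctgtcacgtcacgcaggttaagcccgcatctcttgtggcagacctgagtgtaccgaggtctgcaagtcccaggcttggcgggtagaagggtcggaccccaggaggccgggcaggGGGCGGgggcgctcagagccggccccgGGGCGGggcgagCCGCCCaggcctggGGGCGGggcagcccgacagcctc
Dll1: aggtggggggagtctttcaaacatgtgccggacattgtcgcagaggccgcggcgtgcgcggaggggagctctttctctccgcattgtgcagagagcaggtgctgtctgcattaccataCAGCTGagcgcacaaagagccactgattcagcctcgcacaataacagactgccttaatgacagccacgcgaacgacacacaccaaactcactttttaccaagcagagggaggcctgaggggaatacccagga

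The GC box, a binding motif of Sp1-type factors, occurs 5 times in the Notch1 stretch and 4 times in that of Notch3. The 9 genes have 10 promoter windows in RefSeq, of which 5 hold a GC box, as do 32.7% of all 32851 windows of 250 bases. The E-box, a motif of muscle and other helix-loop-helix factors, occurs 1 time in the Dll1 stretch and in 13% of all windows. Dll1 has 2 start sites in RefSeq, and the window shown is the one with a match, since the other holds none of the 4 motifs searched. The letters TGGGAA, the core bound by RBPJ, were in none of the 10 windows on either strand, whereas 21.6% of all windows hold them. The TATA box TATAAA was in none of the 10, against 12.4% of all windows. Motifs were counted on both strands with overlaps allowed, and a match is a description of these letters only.

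Among the 6 arrays, the one labelled control replicate 3 was set apart. Its log2 values correlated with theirs over all genes at 0.940 to 0.945, against 0.980 to 0.991 among those 5. Its 3' over 5' intensity ratio of Gapdh, a measure of RNA integrity and cDNA length, was 10.5. The ratio was 3.70 in knockout replicate 2 and 1.73 to 1.97 in the other 4 arrays. On its brightest probe set, 1443881_at, Pofut1 read 220, 231 and 194 in the knockout and 301, 380 and 90.6 in the control. There the array labelled control replicate 3 was the lowest of all, below every knockout value. On the dimmer probe sets of Pofut1 it was the highest instead. Of these, 1456323_at read 49.3, 57.8 and 52.0 in the knockout and 54.5, 58.5 and 74.9 in the control. The other, 1450137_at, read 44.3 to 47.9 in the knockout and 46.6, 46.6 and 57.5 in the control. Apart from the 74.9, all of these dimmer values were below the background defined below. The log2 fold change of Pofut1 on 1443881_at was -0.02 ± 0.52 (SE; adjusted p = 0.998 in limma). Leaving out the array labelled control replicate 3 gave -0.66 (95% interval -1.07 to -0.24; unadjusted p = 0.0079 and adjusted p = 0.802 in limma). In that fit 5.99% of all genes had an unadjusted p under 0.05. With knockout replicate 2 left out as well the value was -0.71. The sources used here do not place any Pofut1 probe set inside or outside the floxed stretch. Results below are also given without the array labelled control replicate 3. All 10 muscle fibre markers on a fixed list were above background in these samples of labelled muscle. Background is here an intensity of 62.0, the 95th percentile of the means of 39 genes listed as markers of other tissues. By construction a 95th percentile of 39 means leaves 2 of them above it, here Cyp2e1 at 224 to 1622 and Prm1 at 75.7 to 133. Leaving out these highest genes, Cyp2e1 and Prm1, necessarily lowered the level, here to 55.7. At 55.7, 12 of the 19 probe sets were above it in every array, 3 in some and 4 in none. Below, a probe set is called below background by its value in each array, and a gene of a list by its mean over the 6 arrays.

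No receptor or ligand gene passed the threshold of an adjusted p of 0.05 in limma. Over all genes 0% passed, with a lowest adjusted p of 0.971. Below an unadjusted limma p of 0.05 lay 468 genes (2.57%), of which 0 were among the 9. Of the 9 genes, each read by its brightest probe set, 6 had higher values in the knockout, against 46.3% of all genes with a log2 fold change above 0. Their median log2 fold change was 0.33, beside -0.01 for all genes. Without the array labelled control replicate 3 the median was 0.06, with 6 of 9 higher against 48% of all genes, and again 0 of the 9 had an unadjusted limma p under 0.05, against 5.99% of all genes. Over the 19 probe sets 13 were higher, against 45.6% of all probe sets, and 15 were higher without that array, against 50.2%. For 1 of the 9, Dll1, all 3 knockout values lay above all 3 control values, where 3.33% of all genes had that order. Standard errors of the 9 log2 fold changes ran from 0.11 to 0.42, so differences of the size seen here are poorly resolved by 3 against 3 arrays.

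**Figure D1:**
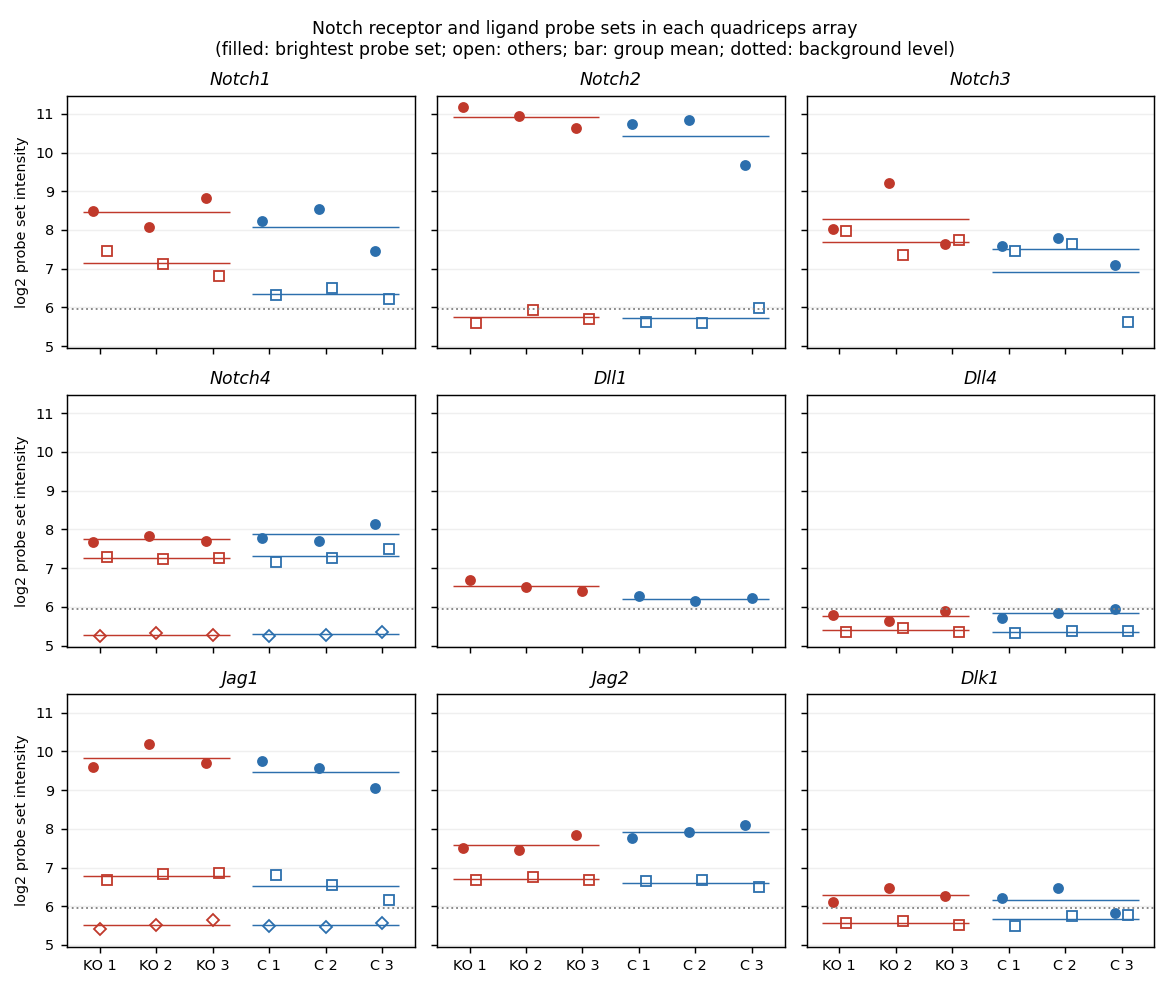
Log2 probe set intensity (vertical axis) in each array (horizontal axis; KO, knockout; C, control) for the 19 probe sets of the 9 genes, with bars at group means and a dotted line at the background level. The knockout values of Dll1 and of the dimmer Notch1 probe set (open squares) all lie above the control values, and control replicate 3 is the lowest array for the brightest probe sets of Notch1, Notch2, Notch3, Jag1 and Dlk1.

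Among the receptors, Notch1, which acts in satellite cells and endothelium, had 2 probe sets above background that gave different pictures. The brighter, 1418634_at, read 359, 269 and 451 in the knockout and 303, 375 and 175 in the control. These groups overlapped, with the highest and the second lowest values both in the knockout. The difference was, as a log2 fold change, 0.38 ± 0.33 (SE; 95% interval -0.41 to 1.17; adjusted p = 0.971 in limma), and 0.06 without the array labelled control replicate 3.

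The dimmer Notch1 probe set, 1418633_at, read 176, 140 and 112 in the knockout and 80.5, 90.9 and 73.9 in the control. Every knockout value was above every control value. In the fit over every probe set its log2 fold change was 0.79 ± 0.23 (SE; 95% interval 0.24 to 1.34), or 1.73-fold, with an unadjusted limma p of 0.0115. The adjusted limma p was 0.987 and the exact two-sided permutation p was 0.1, the smallest that 3 against 3 arrays allow. Of all probe sets, 2.93% had knockout values entirely above control values, and 1.96% had an unadjusted p under 0.05. This was the only one of the 19 probe sets below that unadjusted p, also without the array labelled control replicate 3, where 4.9% of all probe sets were. Leaving out the array labelled control replicate 3 gave 0.72, and 0.72 was also found with both arrays of high Gapdh ratio left out. The intensity ratio of the brighter over the dimmer probe set was 2.04, 1.92 and 4.01 in the knockout and 3.76, 4.12 and 2.37 in the control. The ratio thus separated neither the genotypes nor the arrays with a high Gapdh ratio.

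Notch2, which shares with Notch1 a role in keeping satellite cells quiescent, was above background in every array on the probe set 1455556_at. It read 2311, 1955 and 1580 in the knockout and 1709, 1843 and 817 in the control. Control replicates 1 and 2 lay within the knockout range, and the array labelled control replicate 3 was the lowest of all 6. On the log2 scale the fold change was 0.49 ± 0.32 (SE; adjusted p = 0.971 in limma), and 0.12 with a 95% interval of -0.29 to 0.53 without that array. The second probe set of Notch2, 1451889_at, read 48.3 to 63.9 and was above background in 1 array only.

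Notch3, the receptor of arterial smooth muscle and pericytes, had the largest difference of the 9 genes, and it rested on single arrays. The brightest probe set, 1421965_s_at, read 259, 591 and 201 in the knockout and 191, 224 and 138 in the control. Knockout replicate 2 stood high, and knockout replicate 3 lay below control replicate 2. By Xist and Eif2s3y, knockout replicate 2 was also the only female knockout array, and control replicate 2 the only female control. The log2 fold change was 0.79 ± 0.42 (SE; 95% interval -0.21 to 1.80; adjusted p = 0.971 in limma; exact permutation p = 0.2). It was 0.60 without the array labelled control replicate 3 and 0.14 when knockout replicate 2 was left out as well.

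The other Notch3 probe set, 1421964_at, read 249, 162 and 216 in the knockout and 175, 199 and 49.6 in the control. Here knockout replicate 2 was the lowest knockout array, in contrast to the first probe set. Its log2 fold change of 0.78 ± 0.53 (SE) became 0.14 without the array labelled control replicate 3, in which it was below background. The ratio of the first over the second probe set was 0.93 to 1.12 in 4 arrays. It was 3.64 in knockout replicate 2 and at least 2.22 in the array labelled control replicate 3, with the second probe set put at the background level there. These are the 2 arrays with a Gapdh 3' over 5' ratio above 3. The part of RNA integrity in this disagreement was not tested. The suffix of 1421965_s_at marks probes shared by more than 1 transcript.

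**Figure D2:**
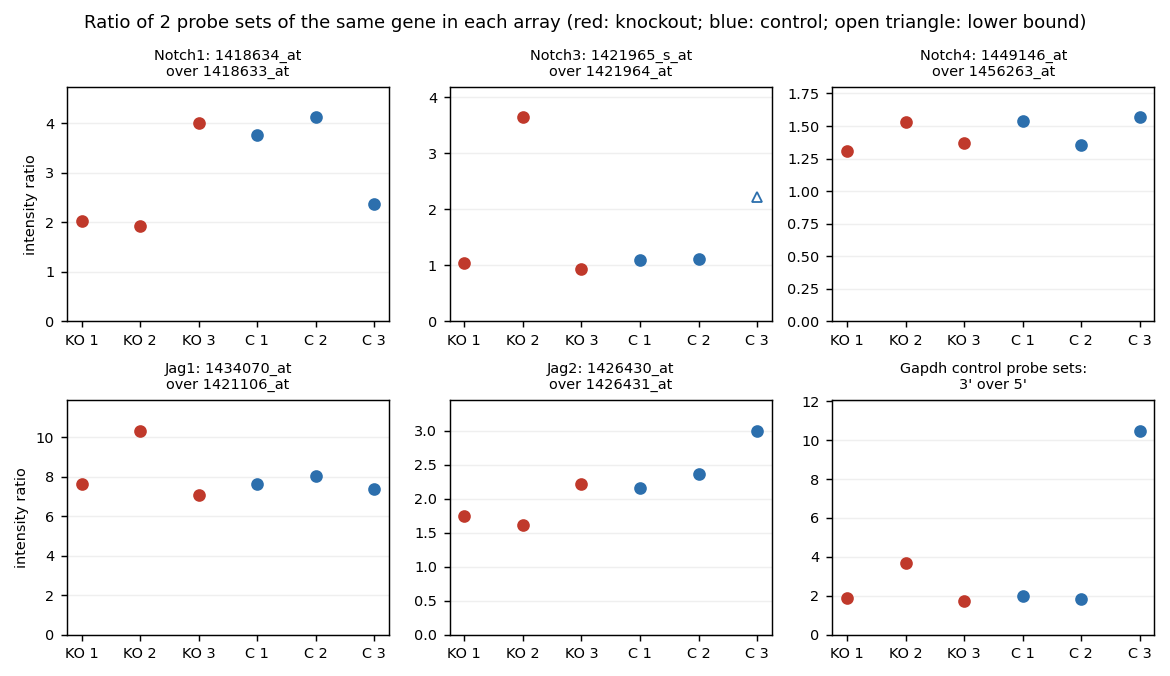
Intensity ratio (vertical axis, from 0) of the 2 probe sets with a mean above background for 5 genes, and of the Gapdh 3' and 5' control probe sets, in each array (red, knockout; blue, control). The Notch3 ratio is 0.93 to 1.12 in 4 arrays and 3.64 in KO 2. The open triangle in C 3 is a lower bound of 2.22, since the second Notch3 probe set was below background there.

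Notch4, a receptor largely restricted to endothelium, had nearly level values. Its brightest probe set, 1449146_at, read 203, 229 and 209 in the knockout and 220, 207 and 284 in the control. The groups overlapped, and the array labelled control replicate 3 was the highest. Its log2 fold change was -0.14 ± 0.21 (SE; adjusted p = 0.971 in limma). Without that array it was 0.00 with a 95% interval of -0.36 to 0.36. The second probe set, 1456263_at, read 150 to 156 in the knockout and 143 to 182 in the control, with a log2 fold change of -0.05 ± 0.19 (SE), or 0.05 without the array labelled control replicate 3. The third, 1436901_at, was below background in all 6 arrays.

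Among the ligands, Dll1, which activates Notch on satellite cells and myoblasts, was the gene with separated groups. Its only probe set, 1419204_at, read 104, 92.1 and 85.7 in the knockout and 77.1, 70.9 and 74.9 in the control. The knockout mean was 93.8 ± 9.13 and the control mean 74.3 ± 3.13 (SD, n = 3 each). All values were low intensities above the background of 62.0, in a range that Prm1, listed as a marker of another tissue, also reached. The log2 fold change of Dll1 was 0.33 ± 0.16 (SE; 95% interval -0.05 to 0.72), or 1.26-fold, with an unadjusted limma p of 0.0794 and an adjusted p of 0.971. The exact two-sided permutation p was 0.1, the smallest possible. The value was 0.34 without the array labelled control replicate 3 and 0.35 without both arrays of high Gapdh ratio. In control replicate 3 Dll1 lay within 0.02 log2 units of the mean of the other controls, unlike most of the other members.

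Jag1, a ligand of vessel walls, was above background in every array on 2 of its 3 probe sets. The brightest, 1434070_at, read 781, 1178 and 825 in the knockout and 858, 760 and 531 in the control. Knockout replicate 2 was highest, the array labelled control replicate 3 lowest, and the remaining 4 arrays lay between 760 and 858 with the genotypes interleaved. The log2 fold change of 0.38 ± 0.24 (SE; adjusted p = 0.971 in limma) became 0.18 without the array labelled control replicate 3. With both extreme arrays left out it was -0.01, with a 95% interval of -0.29 to 0.27. The probe set 1421106_at read 102 to 116 in the knockout and 72.1 to 113 in the control. For this probe set the log2 fold change was 0.27 ± 0.23 (SE), or 0.10 with the array labelled control replicate 3 left out, and 1421105_at was below background in all 6 arrays.

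Jag2, the second Jagged ligand, was the 1 ligand above background in every array with a lower mean in the knockout. Its brightest probe set, 1426430_at, read 181, 175 and 227 in the knockout and 216, 243 and 272 in the control. The groups overlapped by knockout replicate 3, which was above control replicate 1. For Jag2 the log2 fold change came to -0.33 ± 0.21 (SE; adjusted p = 0.971 in limma; exact permutation p = 0.2), or -0.25 with the array labelled control replicate 3 left out. The second probe set, 1426431_at, read 102 to 109 in the knockout and 90.6 to 103 in the control, with a log2 fold change of 0.10 ± 0.18 (SE), opposite in sign, and 0.04 without that array. Over the 6 arrays the 2 Jag2 probe sets varied in opposite directions, with a Pearson r of -0.80 given as a description, since the arrays share their normalization and 1 of them stood apart.

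Dll4, the endothelial ligand that restrains vessel sprouting, was not measured above the background of 62.0 in any array, and in 3 of 6 arrays above the lower level of 55.7. Its brightest probe set, 1421827_at, read 55.4, 49.3 and 59.0 in the knockout and 52.1, 57.8 and 61.6 in the control, and the other, 1421826_at, 40.1 to 44.2. Its log2 fold change of -0.07 ± 0.11 (SE; adjusted p = 0.971 in limma), or -0.01 with control replicate 3 left out, therefore carries no information on size. In all, 5 of the 19 probe sets were below background in all 6 arrays, at 38.1 to 61.6, with 3 more above it in some arrays and 11 in all.

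Dlk1, a membrane protein of the Delta family without the receptor-binding DSL domain, is known as an imprinted inhibitor of fat cell formation and a gene of growing muscle. It read 69.3, 89.4 and 76.5 in the knockout and 73.6, 88.7 and 56.3 in the control (1449939_s_at). These values were close to background, the array labelled control replicate 3 was below it, and the groups overlapped almost entirely. For Dlk1 the log2 fold change came to 0.12 ± 0.21 (SE; adjusted p = 0.971 in limma), and -0.05 without the array labelled control replicate 3. Dlk1 probe set 1442724_at was below background at 45.0 to 54.3. Of the imprinted transcripts of its locus, Meg3, Mirg and Rian were measured and 0 passed the threshold. Meg3, a long noncoding RNA, had a log2 fold change of -0.23 ± 0.28 (SE), and Mirg, above background in 1 array, -0.10 ± 0.16. Rian read 485, 229 and 384 in the knockout and 445, 917 and 109 in the control, with a log2 fold change of -0.02 ± 0.74. For Meg3, Mirg and Rian the values were -0.45, -0.24 and -0.87 without the array labelled control replicate 3.

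**Figure D3:**
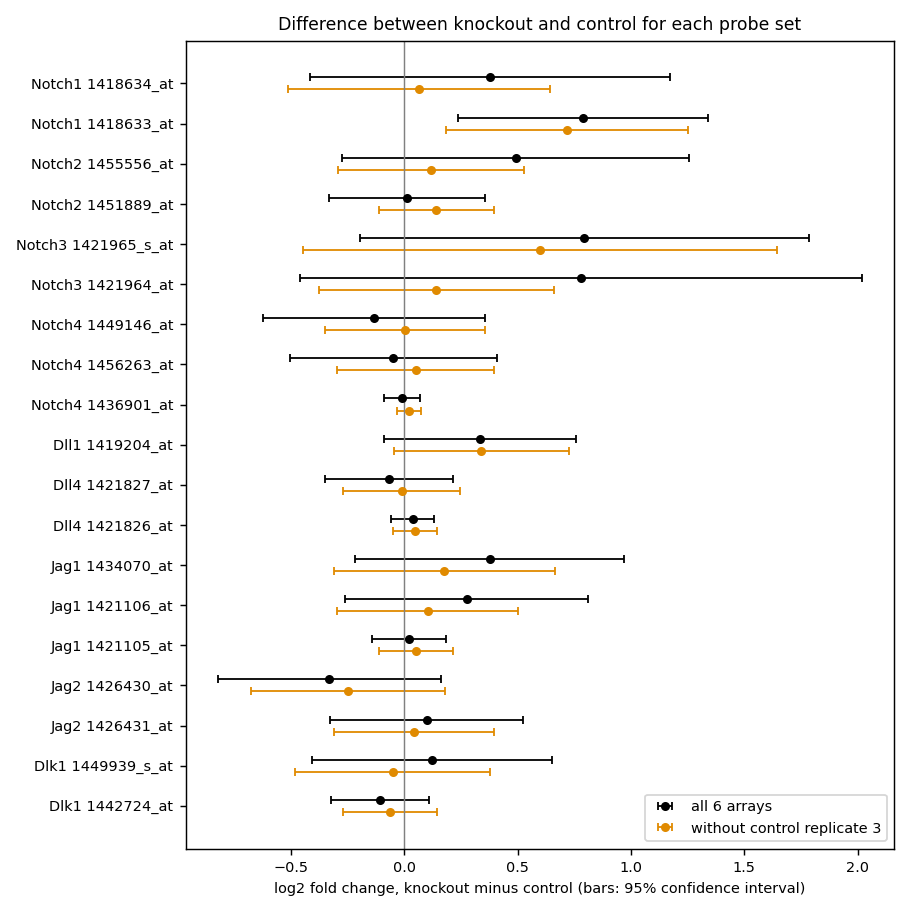
Log2 fold change of knockout over control (horizontal axis) with 95% confidence intervals from limma for each of the 19 probe sets, over all 6 arrays (black) and without control replicate 3 (orange). The interval of Notch1 probe set 1418633_at lies above 0 in both fits, and the difference of Notch3 probe set 1421964_at moves from 0.78 to 0.14.

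The array labelled control replicate 3 was the lowest of all 6 arrays for 5 of the 9 genes and the highest for 3, against 32.15% and 35.3% of all genes. Its value lay below the mean of the other controls by a log2 difference of -1.12 for Notch2, -0.94 for Notch1, -0.60 for Jag1, -0.59 for Notch3 and -0.52 for Dlk1. It lay above them by 0.41 for Notch4, 0.24 for Jag2 and 0.17 for Dll4. In the fit of all arrays the first 5 genes had positive and the last 3 negative log2 fold changes. The control mean includes that array, so this order of signs is partly built in. For the 2 probe sets with separated groups, that of Dll1 and the dimmer one of Notch1, its differences from the other controls were 0.02 and -0.21.

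Cell type marker sums also differed between arrays, and their part in the results was not tested. Of 20 endothelial markers 14 had higher values in the knockout, with summed intensities of 5078 to 5759 against 4605 to 5184 in the control. Without the array labelled control replicate 3 it was 15 of 20. For smooth muscle and pericytes 11 of 14 markers were higher, with sums of 8164 to 9025 against 7122 to 9196, and 13 of 14 without that array. The satellite cell list had 3 of 10 markers higher, and 0 of 10 without the array labelled control replicate 3, with sums of 1912 to 2590 in the knockout and 1388 to 2999 in the control. Markers below background were Gja5 among endothelial genes, Cnn1 among mural genes and Calcr among satellite cell genes. Fibro-adipogenic, adipocyte, macrophage and Schwann cell lists had 6 of 9, 6 of 6, 3 of 9 and 3 of 5 markers higher, and muscle fibre markers 8 of 10. Without the array labelled control replicate 3 these counts were 2 of 9, 4 of 6, 0 of 9, 2 of 5 and 7 of 10. No marker of these lists passed the threshold in limma.

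**Figure D4:**
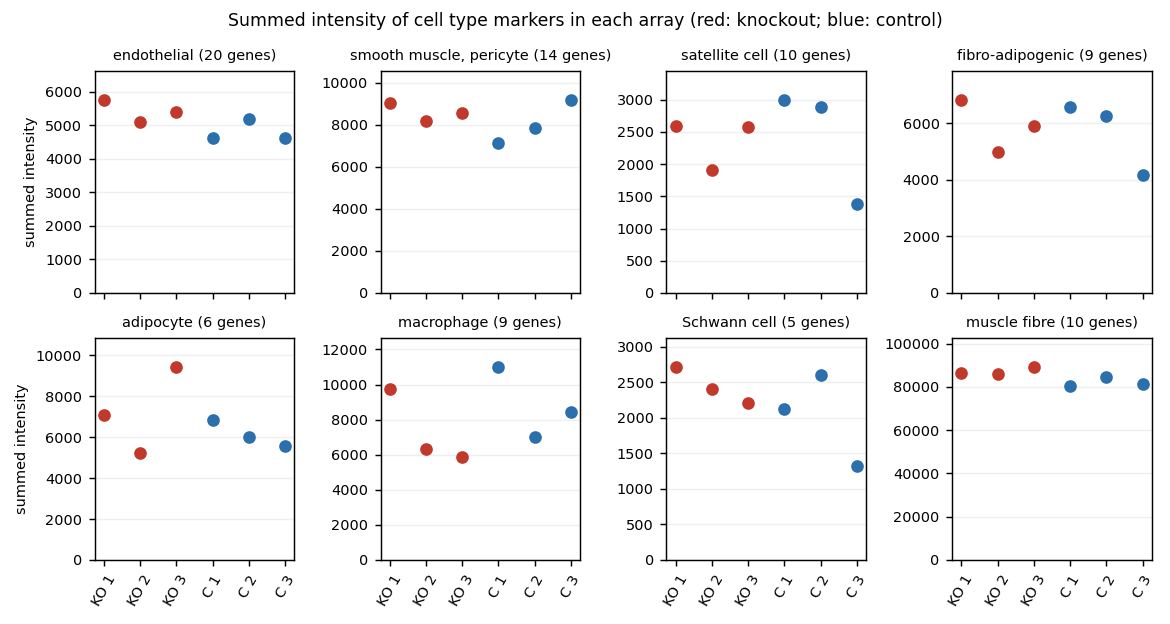
Summed probe set intensity (vertical axis, from 0) of fixed marker lists for 8 cell types in each array (red, knockout; blue, control). The satellite cell sum is lowest, at 1388, in C 3, and the endothelial sum is 5078 to 5759 in the knockout and 4605 to 5184 in the control.

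The rest of the pathway was followed with 8 fixed lists holding 63 measured genes, and 0 of them passed the threshold in limma. Of these 27 had higher and 36 lower values in the knockout, with a median log2 fold change of -0.02 beside -0.01 for all genes. When the array labelled control replicate 3 was left out, again 27 were higher, with a median of -0.03, and 0 passed. They are given here by role.

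Proteases that cut the receptor, with the other gamma-secretase subunits, had higher values for 6 of 8 genes (median 0.09). Without the array labelled control replicate 3 it was 5 of 8 (0.04). Adam10, the protease of the first cut, had a log2 fold change of 0.24 ± 0.15 (SE), or 0.23 without that array, and Aph1a, a gamma-secretase subunit, 0.68 ± 0.48, or 0.15 without it. The nuclear complex had higher values for 8 of 8 genes (median 0.11), and for 6 of 8 without the array labelled control replicate 3 (0.06). These counts include Maml2, which was below background in all 6 arrays with a log2 fold change of 0.0068. Maml1, a Mastermind coactivator, had 0.44 ± 0.23, or 0.28 without that array, and the acetyltransferase gene Kat2b 0.34 ± 0.25, or 0.06 without it. Rbpj, the DNA-binding partner, had 0.02, and -0.14 without it. All 3 Maml1 values of the knockout (305, 431 and 351) lay above those of the control (294, 296 and 212). Of all genes, 3.33% had that order.

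Genes that regulate the receptor were split, 6 of 10 higher (median 0.03), also without the array labelled control replicate 3 (0.06). Of the 8 with a mean above background, 4 were higher, and Numbl and Dtx1 were below it in all 6 arrays. Numb, an endocytic inhibitor of Notch, had 0.41 ± 0.24 (SE), or 0.20 without that array. Its knockout values (529, 419 and 418) all lay above its control values (380, 409 and 252), an order that 3.33% of all genes had. Fbxw7, which marks the intracellular part for degradation, had 0.93 ± 0.62, or 0.15 without that array, where it read 202 against 941 and 1118 in the other controls. Genes that act on ligands had lower values for 5 of 7 (median -0.26), and for 6 of 7 without that array (-0.18). Among them the ubiquitin ligase genes Mib2 and Neurl1b had -0.52 ± 0.29 and -0.28 ± 0.13, or -0.29 and -0.30 without that array. All 3 Neurl1b values of the knockout (67.4, 57.0 and 65.9) lay below those of the control (80.1, 75.9 and 74.6), an order that 5.68% of all genes had. The same order held for Dnm2 (1012, 1008 and 1071 in the knockout and 1128, 1107 and 1099 in the control).

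Glycosylation genes, a list that includes Pofut1, had lower values for 8 of 9 (median -0.11), and for 8 of 9 without the array labelled control replicate 3 (-0.13). With knockout replicate 2 left out as well the median was -0.26, and 7 of 9 were lower. Gmds, of GDP-fucose synthesis, had -0.81 ± 0.38 (SE), or -0.43 without that array. The GDP-fucose transporter gene Slc35c1, the 1 member higher, had 0.35 ± 0.23, or 0.11 without it. Notch target genes had lower values for 8 of 10 (median -0.14), but for 4 of 10 without the array labelled control replicate 3 (0.02). Hes5, Hes7 and Hey2 had a mean below background, and of the other 7 genes 6 were lower, or 3 without that array. Hey1, a target in endothelium, read 302, 192 and 302 in the knockout and 313, 302 and 865 in the control. Its log2 fold change of -0.74 ± 0.44 thus followed the array labelled control replicate 3, and was -0.24 without it. Ccnd1, cyclin D1, read 336, 142 and 307 in the knockout and 547, 451 and 423 in the control, without overlap, an order that 5.68% of all genes had. Its log2 fold change was -0.94 ± 0.34 (SE), with an unadjusted p of 0.029 and an adjusted p of 0.971 in limma. It was -1.02 when the array labelled control replicate 3 was left out, but -0.55 without knockout replicate 2, the lowest array, and -0.63 without both.

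Of other ligands, 6 of 8 had lower values (median -0.05), and 5 of the 8 had a mean below background. Dll3 was below it in all 6 arrays, and the Dlk1 relative Dlk2 was above it in 2 control arrays. Dlk2 had a log2 fold change of -0.24 ± 0.18 (SE), and Egfl7, a secreted endothelial protein, -0.23 ± 0.20. Without the array labelled control replicate 3 these were -0.04 and -0.09. The Egfl7 values of the knockout (210, 217 and 216) all lay below those of the control (236, 221 and 303), an order that 5.68% of all genes had.

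**Figure D5:**
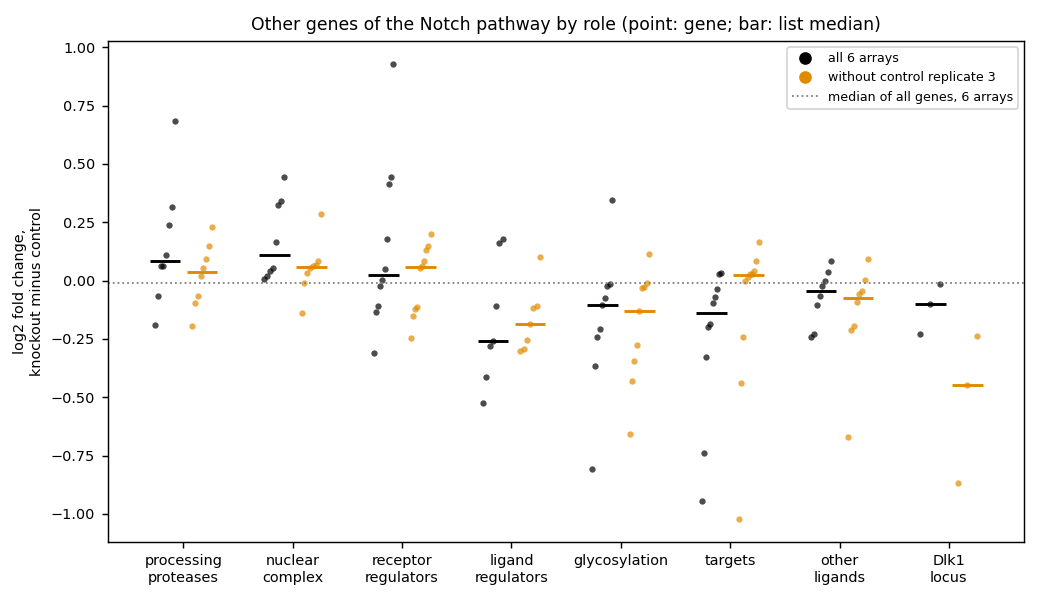
Log2 fold change of knockout over control (vertical axis) for each gene of 8 Notch pathway lists (horizontal axis), over all 6 arrays (black) and without control replicate 3 (orange), with bars at list medians and a dotted line at the median of all genes. The target list moves from a median of -0.14 to 0.02 and the nuclear complex from 0.11 to 0.06 when that array is left out.

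For 8 members above background in at least 1 group, the 3 genes with the most similar log2 values over the 6 arrays were sought among 11120 other genes above background. The similarity was Pearson's r, at 0.978 to 0.998, given as a description, since so many genes were compared over 6 points that share 1 array that stood apart. For the receptors these were Sowahc, Iftap and 4833439L19Rik with Notch1, and Tspan12, Ncam1 and Dzip1 with Notch2. With Notch3 they were Ilf2, Topors and Nap1l3, and with Notch4 Tfe3, Dkc1 and Xrcc1. For the ligands they were Zhx2, Gnaq and D5Ertd579e with Dll1, Get1, Dicer1 and Arhgef2 with Jag1, and Zfas1, Tmco4 and Trim54 with Jag2. With Dlk1 they were Pm20d2, 1700030K09Rik and Ccdc62. Without the array labelled control replicate 3 the r of these 24 pairs was 0.931 to 0.996, lowest for Notch4 with Dkc1.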

How the data were processed

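The authors deposited 1 linear intensity per probe set and array. GCOS and RMA made them, per the submitters' processing notes, which give no versions. That they are linear was judged from their range (37.2 to 16069), and whether RMA output was converted back is unknown. RMA compresses differences of dim probe sets.

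For the tests here log2 of each deposited intensity was taken, adding no pseudocount, and limma 3.58.1 (R 4.3.3) was run (lmFit, eBayes with trend, group only, two-sided, Benjamini-Hochberg over all features). One fit took 18193 genes by their brightest single-gene probe set, another all 45037 probe sets without the 64 controls. Values in the text are from the first fit for brightest probe sets and from the second for the others. Genes were named from the platform annotation, with 34945 probe sets of 1 gene and 932 of several. No label states that replicates are separate animals, and p-values then reflect the spread between samples alone, which may be technical. By Xist and Eif2s3y, 1 of the 3 arrays of each group was female, replicate 2 in both. Leaving out knockout replicate 2 therefore left only male arrays in the knockout, and sex was then not balanced. Array number limits precision. Alternatives covered normalization, pseudocount, filters, variance model, array weights, replicate block, sex, and arrays left out. The members and lists were chosen with earlier results of these data known. The rule named all members with every probe set, Pofut1, the 2 genes of smallest p per pathway list where none passed, and the 3 most similar genes per member. Rbpj, Dll3, Rian, Dnm2, Maml2, Numbl, Dtx1, Hes5, Hes7, Hey2, Cyp2e1, Prm1, Cyp3a11 and the markers below background were named after their values were seen. The limma script was tested on simulated data.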

Additional observations from a re-analysis of the deposited data

How the results depend on the processing

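None of the 9 genes or 19 probe sets passed the limma threshold under the alternatives run for it, up to 16 for genes and 15 for probe sets. The filter on dim features left out Dll4 and the 5 probe sets 1451889_at, 1436901_at, 1421826_at, 1421105_at and 1442724_at, which were not tested there. Nor did any of the 63 pathway genes under the 9 alternatives run for them. Array weights called 4 of all probe sets, none of a member. Of 304 member and Pofut1 log2 fold changes under alternatives, 281 kept their direction and 23 changed sign. Array weights turned Dll4 to 0.0415, Dlk1 to -0.0697, and the Notch4 probe sets 1456263_at and 1436901_at to 0.0715 and 0.0106. Centring on array medians turned 1436901_at to 0.0005. Leaving out knockout replicate 2 and control replicate 3 together, chosen after seeing the data, turned Dll4 to 0.0589, Jag1 to -0.0088, Dlk1 to -0.15, and 1456263_at and 1436901_at to 0.0643 and 0.0041. Leaving out each array in turn gave ranges that crossed 0 for Notch4 (-0.23 to 0.0020), Dll4 (-0.13 to 0.0038), Dlk1 (-0.0514 to 0.28) and Pofut1 (-0.66 to 0.38). The same held for Notch2 probe set 1451889_at (-0.0797 to 0.14), Notch4 probe sets 1456263_at (-0.12 to 0.0490) and 1436901_at (-0.0315 to 0.0218), and Jag1 probe set 1421105_at (-0.0381 to 0.0722). For the other members the ranges stayed on 1 side, at 0.06 to 0.61 for Notch1, 0.12 to 0.70 for Notch2 and 0.34 to 1.12 for Notch3. They were 0.26 to 0.40 for Dll1, 0.18 to 0.52 for Jag1 and, below 0, -0.45 to -0.25 for Jag2. Notch1 probe set 1418633_at ran from 0.62 to 0.95. The cause was not tested. Deviations from the group mean correlated at 0.19, -0.15 and -0.11 between arrays sharing replicate numbers 1 to 3, and at -0.22 to 0.22 between arrays of different numbers. These values cannot decide whether the numbers pair the arrays, since deviations within a group of 3 depend on each other. With the replicate block 0 members passed, with an unadjusted p of 0.0371 for Notch3 and an adjusted p of 0.9998 in limma. Other alternatives of the gene fit also gave unadjusted limma p-values under 0.05. Those of Dll1 were 0.0125 without trend, 0.0267 with array weights and 0.0340 with each gene read as the mean of its probe sets. That mean gave 0.0293 for Notch1. For Notch3 they were 0.0373 with sex as a covariate and 0.041 without knockout replicate 3. The adjusted limma p-values beside them were 0.438 or above. The background level, chosen as 62.0 or, after seeing the data, as 55.7 without Cyp2e1 and Prm1, limits Dll4, Dlk1 and the other probe sets not above it in every array.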

Other observations

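Of the 45037 probe sets, 7059 (15.7%) held exactly the same deposited intensity in 2 or more arrays, and 1109 in 3 or more. Hey1 was at 302.4 in 3 of the 6 arrays. None of the 19 Notch receptor and ligand probe sets held such a value.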
